A study of Mus musculus with 24 samples.

Results

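The endoplasmic reticulum (ER) folding machinery and the unfolded protein response were followed through 35 genes, chosen by name as ER chaperones, folding enzymes, stress sensors and parts of ER-associated degradation and of the translocation pore. All 35 genes are on the array, with 70 probes, out of 27670 genes or features in all. A gene was tested if its probe stood well above background in the sample channel throughout at least 1 group of 3 arrays, which 34 of them did, among 13538 genes. Derl3, a degradation factor, was not well above background on any array, so that only 34 genes carry values here. No gene was chosen for a measured value.

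The samples were fibroblasts grown from mouse embryos taken at day 13.5, bred from CHIP (+/-) parents on C57BL6. CHIP is the product of Stub1, a co-chaperone with ubiquitin ligase activity that binds HSP70 and HSP90, and cells were wildtype or CHIP null. Cultures stayed at 37 °C or were heat shocked at 43 °C, with 30 or 240 min given for each, which makes 8 groups of 3 arrays, called biological replicates in the labels. All cultures, controls included, were grown with β-mercaptoethanol, a reducing agent, and no source used here says how many embryos gave each genotype. Each array carried sample RNA in Cy5 against a common mouse reference RNA in Cy3, so a value is a log2 ratio of sample over reference, which orders groups for 1 gene and cannot order genes. All times are those on the labels of the scanner files, since the authors' value table carries the opposite time label in all 24 columns.

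Secreted and membrane proteins enter the ER through the Sec61 pore and are folded there by BiP (Hspa5), GRP94 (Hsp90b1), the lectin chaperones calnexin and calreticulin, disulfide isomerases and prolyl isomerases. When unfolded proteins build up, BiP leaves the sensors IRE1 (Ern1), PERK (Eif2ak3) and ATF6. ATF6 and spliced XBP1 then raise transcription of the chaperones and of the degradation machinery, while PERK slows translation. Heat at the temperature used here is best known for raising cytosolic heat shock proteins, a separate response.

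Within groups, pairs of arrays had correlations of 0.981 to 0.995 over the probes, 0 pairs were identical, and 32.9 to 48.6% of probes were well above background. Stub1 checked the genotype labels: its log2 ratio was -0.24 to -0.01 on the wildtype arrays and -2.43 to -1.72 on the CHIP null arrays. Fibroblast markers were present, with 9 or 10 of 10 well above background in each group, and 5 of 6 plasma cell markers were below it in every group. Markers of other cell types were above it too, depending on the group: 5 or 6 of 6 for muscle, 3 to 5 of 5 for epithelium, 2 or 5 of 6 for neural cells, 3 to 11 of 13 for macrophages and 1 or 2 of 5 for endothelium. At 30 min the genotypes also differed in Xist, which was higher in CHIP null controls by 1.80, and in the Y-linked Eif2s3y, which fell by 1.36 there, whereas at 240 min these differences were 0.03 and -0.04. The wildtype cultures themselves differed between the time labels. Wildtype control means at 30 and 240 min were -3.27 and -1.78 for Xist and 0.24 and -1.56 for Eif2s3y. In CHIP null controls they were -1.47 and -1.75, and -1.12 and -1.61. Comparisons across the time labels that use wildtype cells cannot be told apart from this difference. The 24 arrays lie on 6 slides of 4, and no slide holds both genotypes of the same treatment. Heat is compared within a slide in each genotype and time only as 3 arrays against 1, and a fit with the slide as a block returns those within-slide differences.

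In cells labelled 30 min, BiP, several folding enzymes and small stress-inducible factors were higher in CHIP null cells than in wildtype cells, with and without heat. Among controls, 10 of 34 members were higher and 1 was lower by limma's moderated test at an adjusted p under 0.05, where 33.9% of all genes were called, 14.6% higher and 19.3% lower. Among heated cells, 15 members were higher and 2 lower, against 27.4% of all genes called, 14.2% higher and 13.2% lower. The median difference over the members was 0.12 in both comparisons (log2 scale), beside -0.01 and 0.01 over all genes tested. In all, 16 members were called higher in at least 1 of these comparisons and 9 in both. These joint counts were not made over all genes, so they have no background to be read against. With median centring in place of loess, all these members kept their direction and 10 of the 11 calls in controls were kept, but 3 of the 17 after heat, where 2 members were then called higher. No member differed by 1.5-fold or more in any comparison of the study.

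BiP, the main ER HSP70 and the gene most often read as a marker of ER stress, was among the clearest. Its log2 ratios were 0.54, 0.45 and 0.25 on the wildtype control arrays and 0.83, 0.86 and 0.90 on the CHIP null controls. Heated wildtype arrays read 0.21, 0.25 and 0.27, and heated CHIP null arrays 0.66, 0.57 and 0.71. The groups did not overlap in either treatment. The differences for Hspa5 were 0.45 ± 0.07 (SE, n = 3 a group, adjusted p = 3.38e-06 by limma), a 1.37-fold excess, and 0.40 ± 0.07 after heat (adjusted p = 2.4e-05 by limma). Hyou1, the large HSP70-like exchange factor that works with BiP, was higher by 0.24 and 0.25. Its control groups overlapped on the arrays, and in controls its call was lost without wildtype control 3 or CHIP null control 3 and after heat without CHIP null heated array 1. Hsp90b1 and Hspa13, the other HSP90 and HSP70 relatives, were not called, at -0.00 and 0.21 in controls. The probes of Hsp90b1 disagreed: a second one gave 0.34 in controls and 0.20 after heat, where the main probe gave -0.05.

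Among disulfide isomerases, Pdia6 gave the largest difference. Its values were 1.06, 0.96 and 1.10 in wildtype controls against 1.41, 1.27 and 1.44 in CHIP null controls, and 0.998, 1.02 and 1.03 against 1.46, 1.30 and 1.34 after heat. All CHIP null arrays lay above all wildtype arrays of the same treatment. The differences for Pdia6 were 0.33 ± 0.06 and 0.35 ± 0.06, with limma adjusted p-values of 3.01e-05 and 1.8e-05. Its 3 other probes also lay above 0, at 0.03 to 0.29 in controls and 0.06 to 0.09 after heat. P4hb, the classical protein disulfide isomerase, was higher after heat, by 0.31 ± 0.08, with 0.33, 0.22 and 0.16 in wildtype and 0.39, 0.64 and 0.62 in CHIP null cells; in controls its difference was 0.10 and not called. Pdia5 was higher after heat by 0.25, a call that was lost without wildtype heated array 3 or CHIP null heated array 3. Pdia3 and Pdia4 were called in neither comparison.

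Fkbp11, a prolyl isomerase of the secretory pathway, had the largest genotype difference of all members. It read 0.33, 0.39 and 0.29 in wildtype controls, 0.81, 0.80 and 0.87 in CHIP null controls, 0.79, 0.78 and 0.72 in heated wildtype and 1.32, 1.18 and 1.19 in heated CHIP null cells. The genotypes were apart on every array of a treatment, by 0.49 ± 0.06 in controls (limma adjusted p = 1.99e-07) and 0.47 ± 0.06 after heat (6.31e-07). A second, dimmer probe for Fkbp11 differed by 0.08 and 0.04. The other prolyl isomerases were each called once, Fkbp2 in controls (0.17, lost without wildtype control 3 or CHIP null control 3) and Ppib after heat (0.20, lost without wildtype heated array 1 or 2 or CHIP null heated array 1).

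Manf, Sdf2l1 and Creld2, the 3 small stress-inducible factors of the set, were all higher in CHIP null cells in both treatments. Manf, a secreted ER protein that associates with BiP, read 1.31, 1.20 and 1.11 in wildtype controls and 1.58, 1.46 and 1.59 in CHIP null controls. After heat it read 1.05, 1.08 and 1.06 against 1.35, 1.19 and 1.33, so the genotypes were apart in both treatments. The differences were 0.34 ± 0.06 for Manf in controls and 0.23 ± 0.06 after heat, 0.28 and 0.23 for Sdf2l1, a BiP co-factor, and 0.19 and 0.27 for Creld2. In controls the call of Creld2 was lost without wildtype control 3 or CHIP null control 2 or 3.

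DNAJ co-chaperones of BiP split. Dnajc10, a disulfide reductase, was higher by 0.28 ± 0.06 in CHIP null controls, with 0.68, 0.67 and 0.60 in wildtype and 0.97, 0.90 and 0.90 in CHIP null, and by 0.24 ± 0.06 after heat. Dnajb9, whose product represses IRE1, was lower in CHIP null cells, by 0.20 ± 0.06 and 0.25 ± 0.06. It read 0.08, 0.11 and 0.02 in wildtype controls against -0.08, -0.10 and -0.21 in the CHIP null, and its control call was lost without wildtype control 2 or CHIP null control 3. Dnajb11 and Dnajc3 were not called, at 0.10 and 0.17 in controls. The 3 other Dnajc3 probes gave 0.04 to 0.31 in controls, with a call among them. Other Dnajc10 probes gave 0.09 to 0.21 in controls, with a call, and -0.01 to 0.10 after heat, without one. Other Dnajb9 probes gave -0.06 to -0.04 and -0.17 to -0.09, without a call.

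Of 6 degradation factors tested, Herpud1, a membrane scaffold of the ubiquitin ligase HRD1, was higher in both treatments. It read -0.77, -0.69 and -0.62 in wildtype controls and -0.50, -0.46 and -0.56 in CHIP null controls, a difference of 0.18 ± 0.07 whose call was lost without wildtype control 1 or 2 or CHIP null control 1 or 2. After heat it read -0.81, -0.93 and -0.93 against -0.78, -0.49 and -0.47, and the difference was 0.31 ± 0.07 (limma adjusted p = 0.000883). After heat Syvn1, which is HRD1 itself, was lower by 0.19 and Derl1 higher by 0.21; the call of Derl1 was lost without any of the 3 wildtype heated arrays or CHIP null heated array 1. Calr, the soluble lectin chaperone, was higher by 0.21 and Sec61a1, the pore's channel subunit, by 0.22, the latter lost without wildtype heated array 2 or 3 or CHIP null heated array 2 or 3. In controls Calr was not called (0.05), while a second Calr probe was called in controls and after heat (0.28 and 0.27). Other Derl1 probes gave 0.04 to 0.05 after heat, without a call. None of Atf6, Ern1, Eif2ak3 and Xbp1 was called in either comparison, with differences of -0.09 to 0.11.

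**Figure D1:**
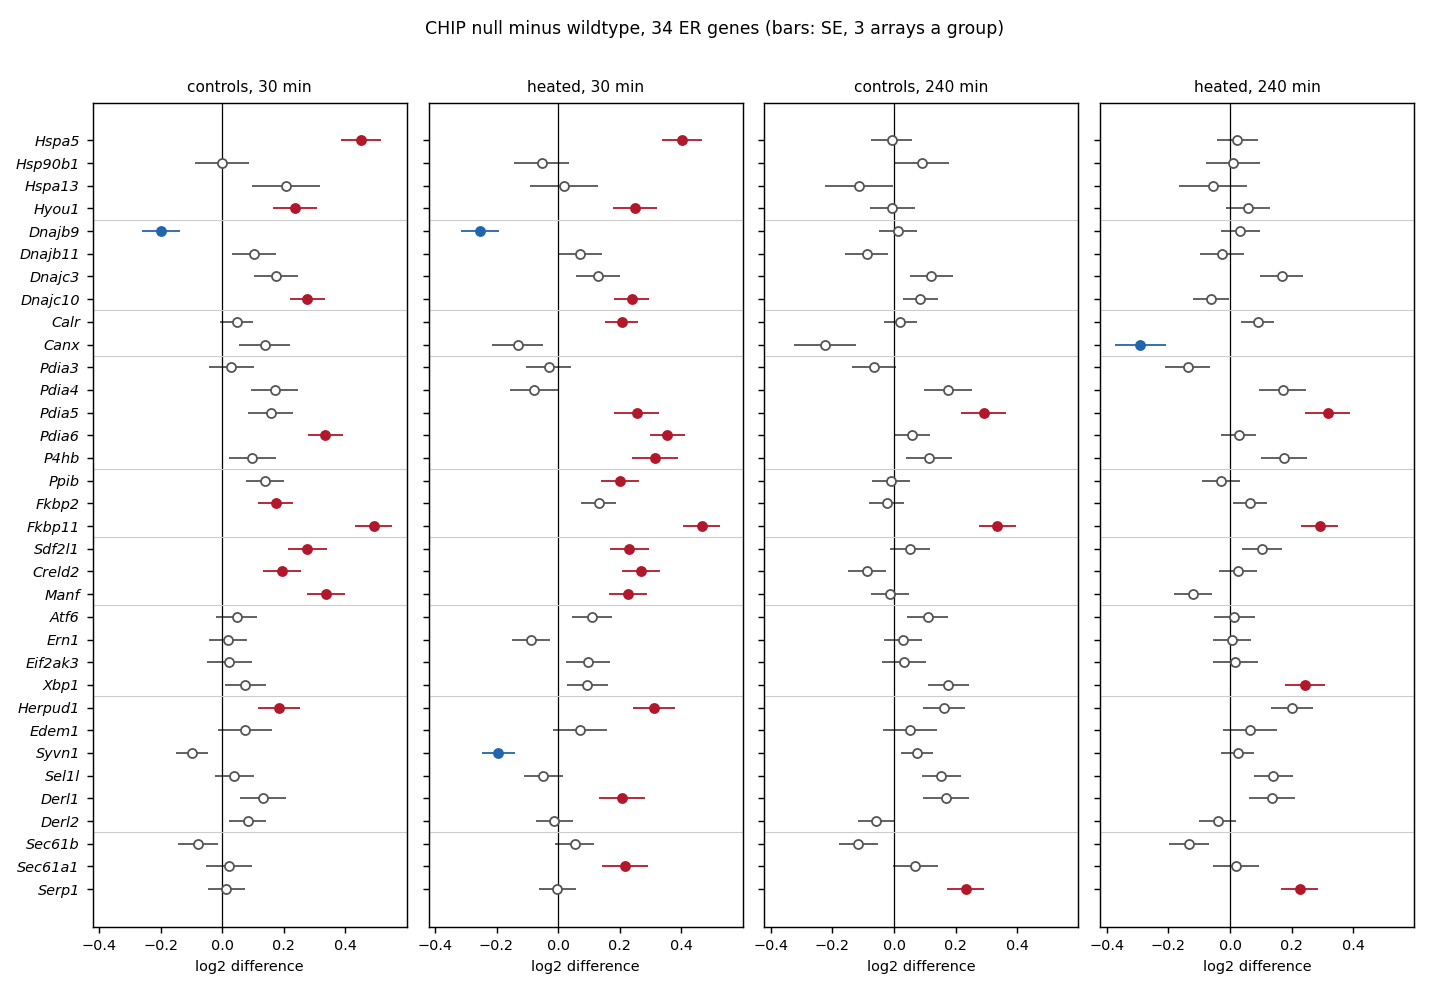
CHIP null minus wildtype difference (x axis, log2 scale, bars ± SE, 3 arrays a group) for the 34 tested members (y axis, in blocks by role), in controls and heated cells at 30 and 240 min. Red and blue filled points were called higher or lower by limma and open points were not; 10 and 15 members are red at 30 min, and 3 and 4 at 240 min.

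With the slide as a block, 4 members were called higher in controls and 5 after heat at 30 min, and 0 lower. In either direction, 1638 and 1721 of all 13538 genes were called. The members' median difference was then 0.15 in controls and 0.06 after heat. Of the members named above, the differences for Hspa5 were 0.35 (adjusted p = 0.0378 by limma with the slide block) and 0.15 (0.432), for Fkbp11 0.33 (0.0335) and 0.35 (0.0239), for Pdia6 0.23 (0.175) and 0.40 (0.0126), for Herpud1 0.53 and 0.52 (0.00123 and 0.00138) and for Manf 0.20 and 0.05 (0.281 and 0.826). All 11 calls in controls and 15 of 17 after heat kept their direction, the exceptions being Hyou1 at -0.06 and Ppib at -0.04. Macrophage markers moved with the genotype in controls: 11 of 13 listed were tested and 11 were lower in CHIP null controls, with a mean log2 ratio of -0.46 to -0.44 on wildtype arrays and -1.52 to -1.37 on CHIP null arrays, while Laptm5 and Ptprc were below background in every group. After heat at 30 min the marker means were -1.18 to -1.05 and -1.45 to -1.38, with 4 of 11 lower. Neural markers were lower too, 6 of 6 in CHIP null controls (median -0.46) and 3 of 6 after heat, and of 10 fibroblast markers 4 were higher and 2 lower in controls and 6 and 1 after heat (medians 0.11 and 0.32). The part of these markers, and of the genes of the sex chromosomes, in the members' differences was not tested.

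In cells labelled 240 min the genotype difference was narrower. In controls 3 members were higher and none lower, against 13% of all genes called (4.79% higher, 8.23% lower). There 9 of 34 members had an unadjusted p under 0.05, beside 3245 of all 13538 genes. In heated cells 4 were higher and 1 lower, against 12.9% called (4.65% higher, 8.27% lower). With median centring, 1 of the 3 calls in controls and 0 of the 5 after heat were kept, while every called member kept its direction. Fkbp11, Pdia5 and Serp1 were higher in both. Fkbp11 read 0.60, 0.64 and 0.66 in wildtype and 0.97, 0.91 and 1.03 in CHIP null controls, a difference of 0.33 ± 0.06, and 0.29 ± 0.06 after heat, where a dimmer second probe gave 0.54. Pdia5 read 0.98, 0.97 and 0.84 against 1.18, 1.23 and 1.25 in controls, and 1.09, 1.20 and 1.19 against 1.43, 1.503 and 1.49 after heat, differences of 0.29 ± 0.07 and 0.32 ± 0.07. Serp1, which protects membrane proteins during translocation, was higher by 0.23 in both.

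Not all of these calls held on fewer arrays. Without wildtype control 3 the control call of Pdia5 was lost, and without wildtype heated array 3 or CHIP null heated array 1 the call of Serp1 after heat. Xbp1 was higher by 0.24 in heated CHIP null cells and Canx lower by 0.29. The Xbp1 call was lost without wildtype heated array 1 or CHIP null heated array 2 or 3, and the Canx call without wildtype heated array 1 or 2 or CHIP null heated array 3. Under the slide block, no member was called at 240 min in either treatment, beside 467 of all 13538 genes in controls and 369 after heat. Of the 11 macrophage markers tested, 6 were lower in CHIP null controls and 5 in heated CHIP null cells at 240 min. In controls 5 of 5 epithelial and 4 of 6 muscle markers were lower and 7 of 10 fibroblast markers higher, and after heat 3 of 5, 3 of 6 and 7 of 10. The part of these markers in the members' differences was not tested.

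BiP, which separated the genotypes at 30 min, did not at 240 min. Hspa5 read 1.005, 1.13 and 1.04 in wildtype controls and 1.12, 1.001 and 1.03 in CHIP null controls, and 1.13, 1.01 and 0.97 against 1.002, 1.14 and 1.04 after heat, all overlapping. The change of the genotype difference between the time labels was tested directly, a comparison added after the values were seen. Wildtype cultures differed in Xist and Y-linked genes between those labels, which the comparison cannot separate from time. In controls it was -0.46 ± 0.09 for Hspa5, -0.35 for Manf, -0.28 for Pdia6 and -0.28 for Creld2, and these 4 of 34 were called, beside 18% of all genes (9.11% higher, 8.86% lower). In heated cells 6 were called, beside 17.6% of all genes (7.22% higher, 10.4% lower): Hspa5, Pdia6, Manf and Dnajc10 with a smaller difference at 240 min, and Dnajb9 and Syvn1 with a difference that was no longer negative. Fkbp11 was not called, at -0.16 and -0.17. Without CHIP null 30 min control 3 the number called in controls was 2. In heated cells the number above 0 among those called, 2 with all arrays, was 0 without wildtype heated array 1 or CHIP null heated array 3 at 30 min or wildtype heated array 2 or 3 at 240 min. It was 1 without wildtype heated array 2 or 3 or CHIP null heated array 1 at 30 min, or CHIP null heated array 1 at 240 min. With the slide as a block none was called in either treatment, beside 693 of all 13538 genes in controls and 658 in heated cells.

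**Figure D2:**
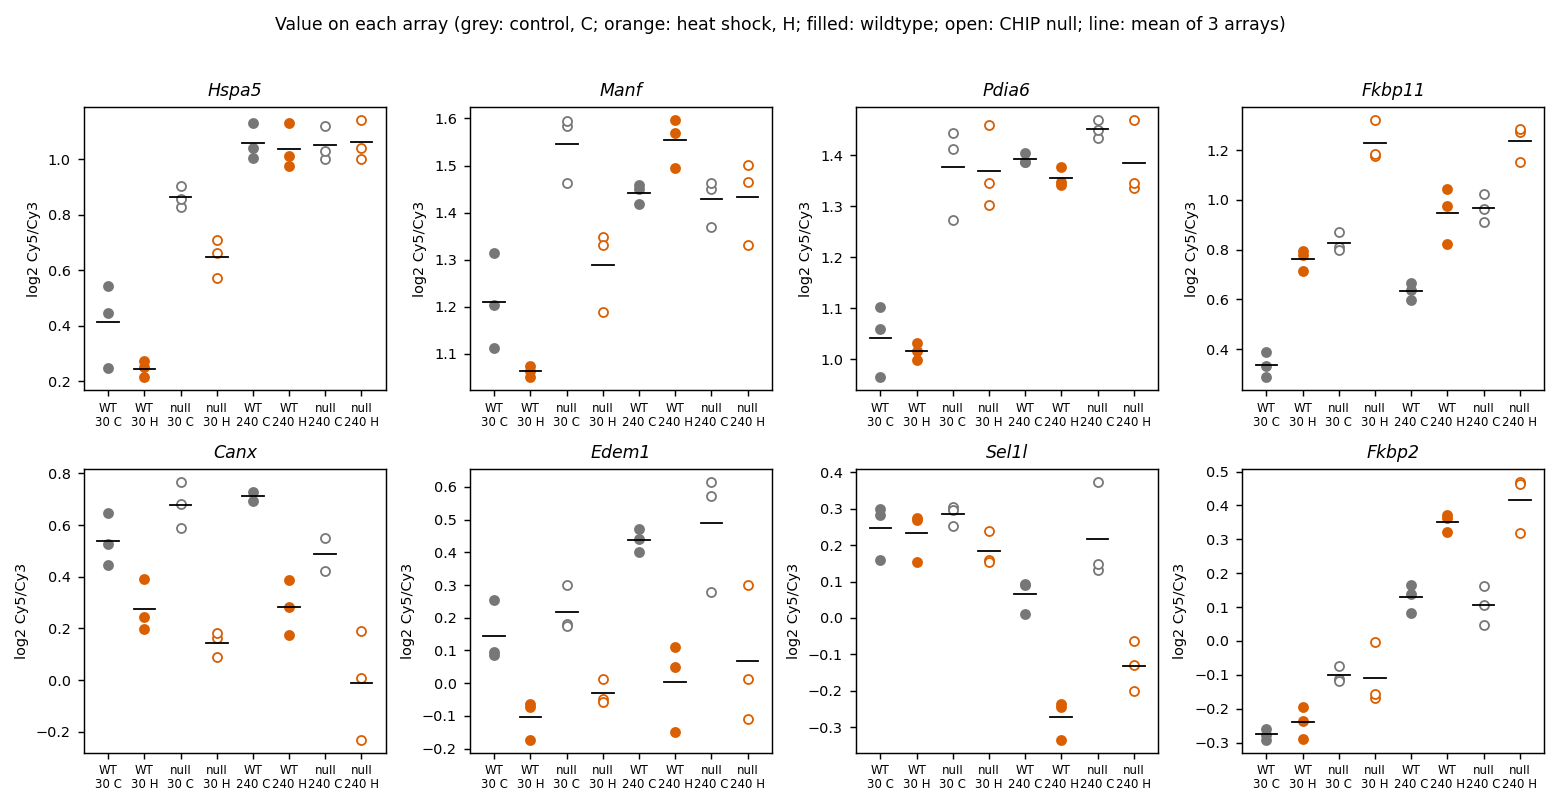
Log2 ratio of sample over common reference (y axis) on each of the 24 arrays for 8 members, by group (x axis; WT wildtype, null CHIP null, C control, H heat shock, 30 or 240 min); lines are group means. Hspa5 and Manf are apart between genotypes at 30 min and overlap at 240 min, Fkbp11 is apart at both times, and Canx, Edem1 and Sel1l lie lower after heat at 240 min; Canx lacks 1 array in each 240 min control group, left out as an outlier spot.

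Promoter sequences were searched for elements known from this response. The members were chosen by name for the same response, so a high share among them is not an independent result. The ER stress response element (ERSE), CCAAT and CCACG with 9 free bases between them, is bound by ATF6 with the factor NF-Y, and a shorter form, ERSE-II, is ATTGG and CCACG with 1 free base between them. Both were searched on both strands in windows from 250 bases before to 50 after each start site (RefSeq, GRCm38.p6), which exist here for 29 of the 35 members. ERSE was in 9 members, 31% of those with a window, and in 0.137% of all 27025 genes with one (0.119% of 32851 windows). ERSE-II was in 2 members, 6.9%, and in 0.0444% of all genes. The matches follow, each read on its own strand with the fixed letters in capitals, to show how the spacer varies between genes:
Hspa5: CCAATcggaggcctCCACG
Hsp90b1: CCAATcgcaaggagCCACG
Hsp90b1: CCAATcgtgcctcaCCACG
Pdia6: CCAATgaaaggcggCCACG
Calr: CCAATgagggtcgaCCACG
Canx: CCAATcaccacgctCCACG
Dnajc3: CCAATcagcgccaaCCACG
Creld2: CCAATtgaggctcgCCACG
Syvn1: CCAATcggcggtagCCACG
Derl3: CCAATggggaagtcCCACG
Dnajb11: ATTGGcCCACG
Herpud1: ATTGGgCCACG

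The first base of the window's match lay 65 bases before the start site in Hspa5, 98 in Pdia6, 145 in Canx, 52 in Herpud1 and 44 in Syvn1, while that of Dnajb11 lay 7 bases after it. The 220 bases before the start site are shown for a gene that was higher in CHIP null cells at 30 min without a heat call in the wildtype (Hspa5), one with the same genotype pattern and no heat call (Pdia6) and one that was lower after heat (Canx). Hspa5 is at chr2:34771870-34772089 on the plus strand, Pdia6 at chr12:17266369-17266588 on the plus strand and Canx at chr11:50325674-50325893 on the minus strand, in GRCm38.p6, with the fixed letters of ERSE in capitals:
Hspa5: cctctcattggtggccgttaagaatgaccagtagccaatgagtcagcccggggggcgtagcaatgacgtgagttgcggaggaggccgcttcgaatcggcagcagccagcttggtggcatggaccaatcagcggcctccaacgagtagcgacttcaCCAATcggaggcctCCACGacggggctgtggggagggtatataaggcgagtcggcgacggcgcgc
Pdia6: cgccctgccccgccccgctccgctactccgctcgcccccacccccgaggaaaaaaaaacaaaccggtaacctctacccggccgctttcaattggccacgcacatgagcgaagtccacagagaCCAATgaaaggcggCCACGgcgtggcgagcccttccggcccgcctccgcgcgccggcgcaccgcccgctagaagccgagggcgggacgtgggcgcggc
Canx: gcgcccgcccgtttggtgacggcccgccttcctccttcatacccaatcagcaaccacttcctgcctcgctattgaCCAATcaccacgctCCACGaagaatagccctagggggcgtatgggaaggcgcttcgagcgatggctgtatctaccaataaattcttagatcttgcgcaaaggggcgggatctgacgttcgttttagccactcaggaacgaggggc

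How far members with and without these elements were apart in expression varied between comparisons, and this is given as a description only. Among tested members with a window, 10 held ERSE or ERSE-II and 18 held neither. In CHIP null controls at 30 min, 4 of the 10 were higher and none lower, with a median difference of 0.16, and 4 of the 18 were higher and 1 lower, with a median of 0.08. Fkbp11, which had the largest genotype difference, held neither. After heat at 240 min in wildtype cells, 1 of the 10 was higher and 2 lower, against 8 and 4 of the 18. After heat at 30 min in wildtype cells the calls did split, with 0 higher and 3 lower of the 10 against 3 and 0 of the 18. The changes of all tested members still overlapped there, at -0.26 to 0.14 with an element and -0.25 to 0.43 without. In the change of the genotype difference between the time labels in controls, 3 of the 10 and 0 of the 18 were lower. The element UPRE (TGACGTGG), which shares CGTGG with the reverse complement of ERSE, and a heat shock element spelled GAA, TTC and GAA, each 2 bases apart, were in 0 of 29 member windows, and in 0.714% and 0.662% of all genes. These are matches of letters in a window, and no binding was measured.

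Heat shock changed members in both directions, by less than 1.5-fold, and BiP was not raised. At 30 min in wildtype cells 3 of 34 members were higher and 3 lower, where 14.5% of all genes were called (6.75% higher, 7.76% lower). In CHIP null cells 7 were higher and 7 lower, against 35.2% (22.6% higher, 12.6% lower). At 240 min 10 were higher and 7 lower in wildtype cells, against 31.4% (18.7% higher, 12.7% lower). In CHIP null cells 12 were higher and 9 lower at that time, against 38.9% (24.4% higher, 14.5% lower). The median change over the members was -0.01, -0.02, 0.02 and 0.01 in that order, beside 0.01, 0.03, 0.06 and 0.07 over all genes. No member was called in opposite directions in any pair of heat comparisons, and 6 were called in none. The same counts were not made over all genes.

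Another dye balance shifted the median over all genes down after heat and turned rises in CHIP null cells, though none in wildtype cells. With each array's ratios centred on their median in place of loess, the median over all genes became -0.09, -0.18, -0.03 and -0.17 in the same order. No member was then called higher in any of the 4 heat comparisons, and 21 were called lower in CHIP null cells at 30 min. Of all calls, the share that was higher went from 46.5, 64.2, 59.6 and 62.7% to 4.21, 0.8, 4.32 and 0.406%. With the log ratio of the scanner software, which is dye-normalized, those shares were 39.4, 46, 43.8 and 41.6%, and all called members kept their direction. In the genotype comparisons, all called members kept their direction under either scaling. The share of calls that was higher there went from 43.1, 36.8, 51.7 and 36% (controls at 30 and 240 min, then heated) to 66.8, 38.1, 29 and 8.1% with median centring.

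**Figure D3:**
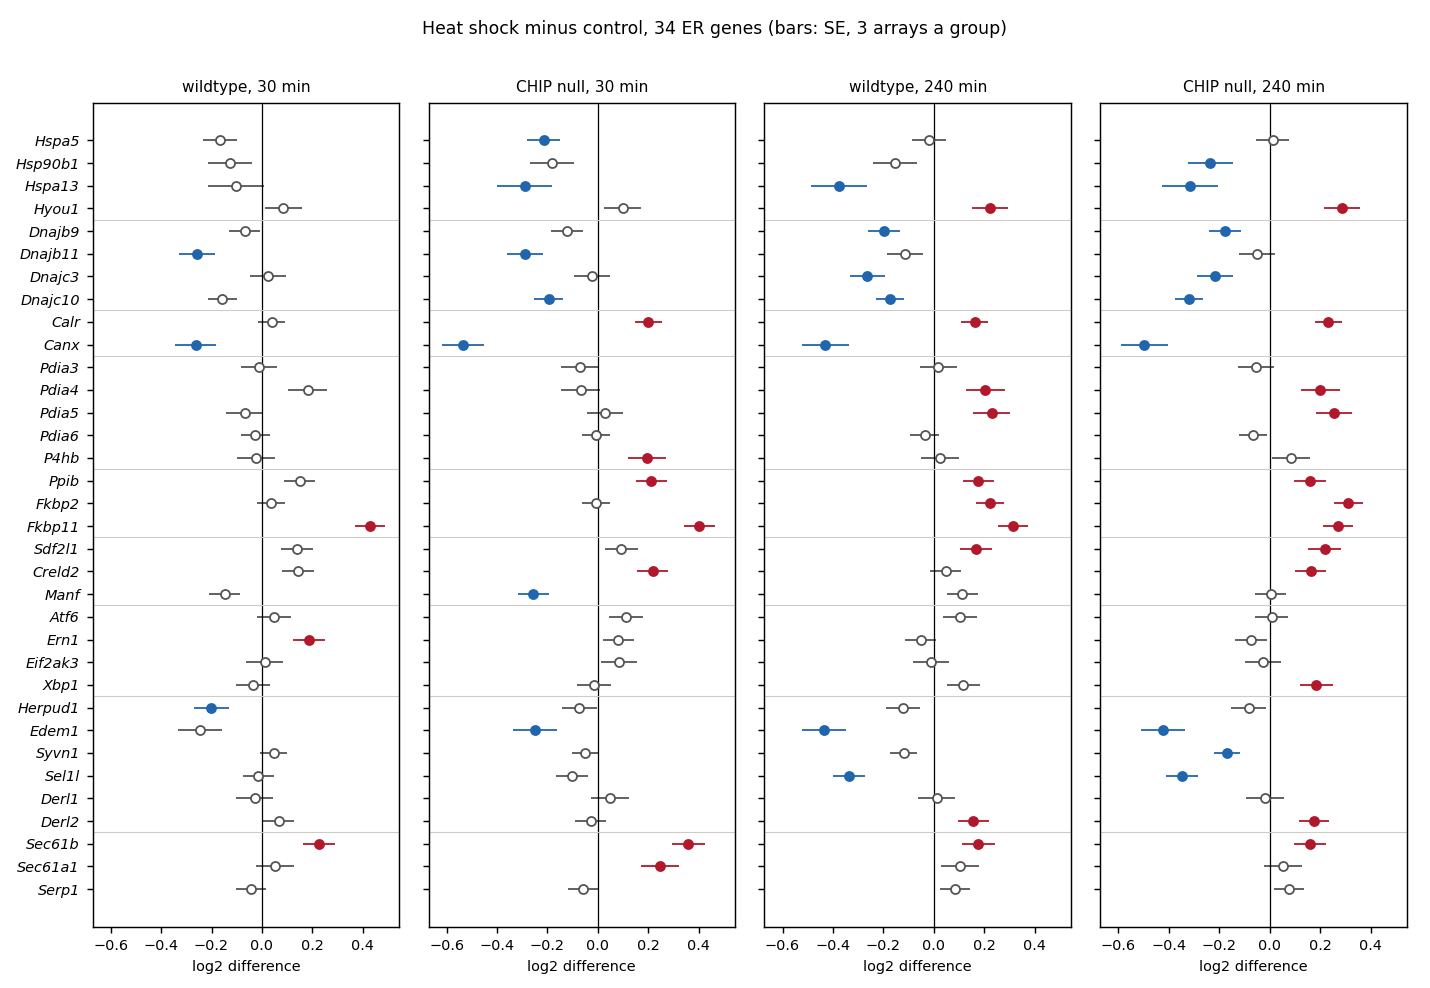
Heat shock minus control (x axis, log2 scale, bars ± SE, 3 arrays a group) for the 34 tested members (y axis, in blocks by role), in each genotype at 30 and 240 min; filled points were called, red higher and blue lower. Prolyl isomerases lie right of 0 and DNAJ co-chaperones left of it at 240 min; with median centring in place of loess, all red points of the CHIP null turn below 0 except Fkbp11 at 30 min (0.05), and no red point stays called.

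Fkbp11 was called higher after heat in all 4 comparisons. In wildtype cells it moved from 0.33, 0.39 and 0.29 to 0.79, 0.78 and 0.72 at 30 min and from 0.60, 0.64 and 0.66 to 0.82, 1.04 and 0.97 at 240 min. In CHIP null cells it went from 0.81, 0.80 and 0.87 to 1.32, 1.18 and 1.19, and from 0.97, 0.91 and 1.03 to 1.15, 1.27 and 1.29. Heated and control arrays did not overlap in any of these. The changes for Fkbp11 were 0.43 ± 0.06 and 0.31 ± 0.06 for wildtype cells, then 0.40 ± 0.06 and 0.27 ± 0.06 for CHIP null cells, with limma adjusted p-values of 4.28e-05, 0.000376, 2.63e-05 and 0.00124. Within slides they were 0.48, 0.19, 0.50 and 0.21, with median centring 0.27, 0.22, 0.05 and -0.04, and on the dimmer second probe 0.10, 0.12, 0.07 and 0.47.

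Fkbp2 and Ppib, the other prolyl isomerases, rose at 240 min in both genotypes, and Ppib also at 30 min in CHIP null cells (0.21, lost without heated array 1). At 240 min the calls of Ppib (0.18 and 0.16) were lost without any 1 of the arrays but heated array 1. Fkbp2 went from 0.08, 0.17 and 0.14 to 0.32, 0.37 and 0.36 in wildtype cells and from 0.11, 0.05 and 0.16 to 0.32, 0.47 and 0.46 in CHIP null cells at 240 min. Its groups did not overlap, with changes of 0.22 ± 0.06 and 0.31 ± 0.06, and its second probe changed by 0.22 and 0.23. At 30 min the changes of Fkbp2 were 0.03 and -0.01. With median centring they were 0.17 and -0.00 at 240 min. Sec61b, the small subunit of the pore, was called higher in all 4 comparisons, by 0.23, 0.36, 0.18 and 0.16 (wildtype and CHIP null at 30 min, then at 240 min). It went from 0.86, 0.78 and 0.82 to 1.09, 1.27 and 1.18 in CHIP null cells at 30 min. Only there was the call of Sec61b kept on leaving out any of the 6 arrays, and there median centring turned it to -0.03.

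Canx, the membrane lectin chaperone, was called lower in all 4 heat comparisons on its brightest probe. It went from 0.65, 0.53 and 0.45 to 0.20, 0.24 and 0.39 in wildtype and from 0.59, 0.68 and 0.77 to 0.16, 0.09 and 0.18 in CHIP null cells at 30 min. At 240 min it went from 0.69 and 0.73 to 0.39, 0.28 and 0.18, and from 0.55 and 0.42 to 0.19, 0.01 and -0.23, with 1 control array of each genotype left out as an outlier spot. The changes were -0.26 ± 0.08, -0.53 ± 0.08, -0.43 ± 0.09 and -0.50 ± 0.09 for Canx in that order. The first was lost without wildtype control 1 or 2 or heated array 1 or 2. Its 2 other probes changed by only -0.15 to 0.03 in these comparisons and were not called. Calr, the soluble partner of Canx, moved the other way, by 0.20 in CHIP null cells at 30 min and by 0.16 and 0.23 at 240 min; with median centring these became -0.24, 0.15 and -0.05. The wildtype call of Calr was lost without control 1 or 3 or heated array 2 or 3.

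Sel1l and Edem1, factors of ER-associated degradation, fell at 240 min. Sel1l, the partner of HRD1, went from 0.09, 0.01 and 0.09 to -0.24, -0.33 and -0.24 in wildtype cells and from 0.13, 0.37 and 0.15 to -0.20, -0.13 and -0.06 in CHIP null cells. The changes of Sel1l were -0.34 ± 0.06 and -0.35 ± 0.06 (limma adjusted p = 0.00028 and 0.000153), -0.31 and -0.28 within slides, and -0.15 and -0.13 on its second probe. At 30 min they were -0.01 and -0.10 and not called, although the second probe was called in the wildtype (-0.29). Edem1, which passes misfolded glycoproteins to degradation, went from 0.47, 0.40 and 0.44 to 0.11, 0.05 and -0.15 in wildtype and from 0.62, 0.28 and 0.57 to 0.30, 0.01 and -0.11 in CHIP null cells, where the groups overlapped. The changes of Edem1 were -0.43 ± 0.09 and -0.42 ± 0.09, while its other probes gave -0.08 and 0.20 in wildtype and -0.09 and 0.17 in CHIP null cells. At 30 min Edem1 was -0.25 in both genotypes, called in the CHIP null, where the call was lost without control 3 or heated array 2 or 3. Syvn1 was called lower in CHIP null cells (-0.17, lost without CHIP null control 3 or heated array 2), against -0.12 in the wildtype. Derl2 rose by 0.16 and 0.17 on its main probe, and its second probe gave -0.17 in the wildtype. The wildtype call of Derl2 was lost without any 1 of the 6 arrays, and the CHIP null call without control 1 or 2 or heated array 1 or 2.

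**Figure D4:**
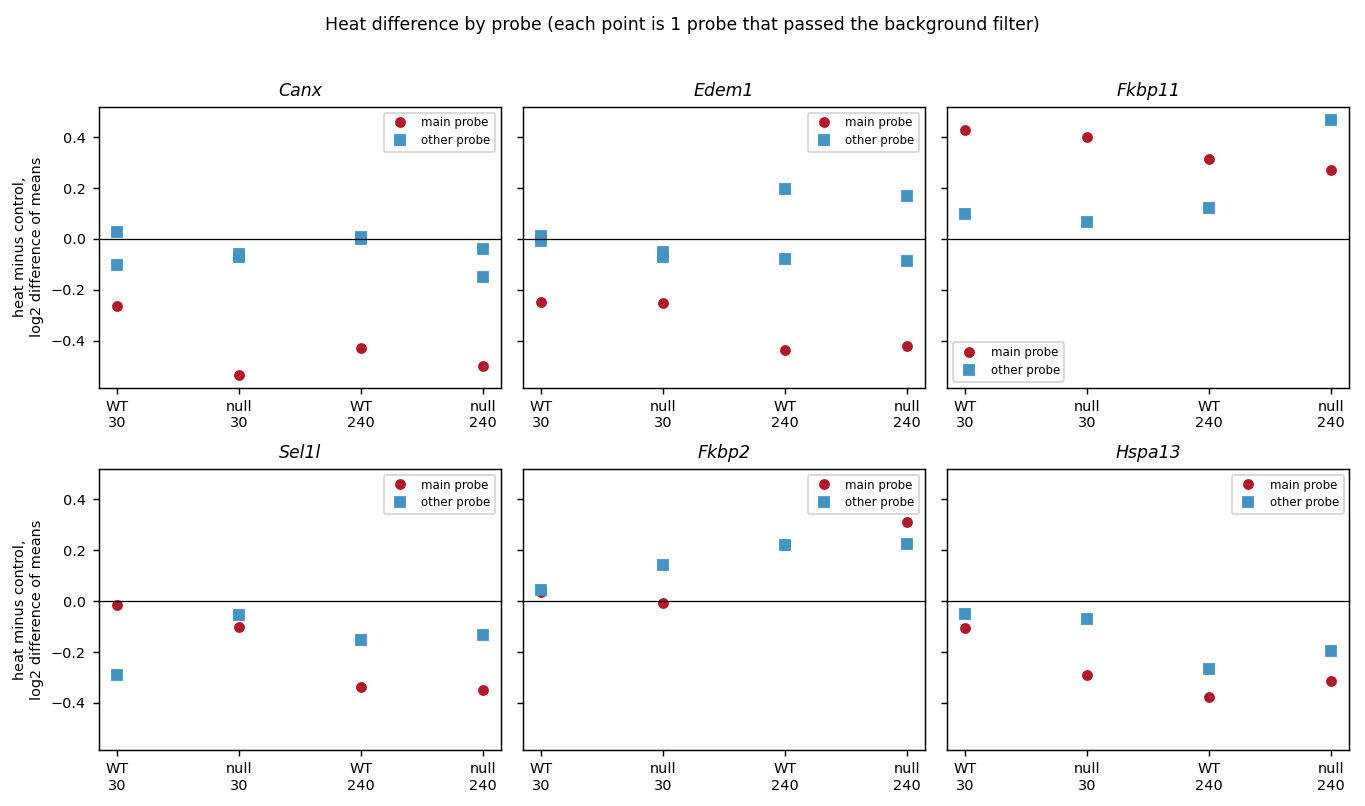
Heat minus control difference of group means (y axis, log2 scale) for each probe that passed the background filter, for 6 members in each genotype (WT wildtype, null CHIP null) at 30 and 240 min (x axis); circles are the brightest probe, used for the gene, and squares the others. Fkbp2 and Hspa13 probes lie on the same side of 0 at 240 min, while the other Canx probes stay between -0.15 and 0.03 and 1 Edem1 probe lies above 0 at 240 min.

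Of 4 DNAJ co-chaperones, 3 were lower after heat at 240 min in both genotypes on their brightest probes: Dnajb9 by 0.20 and 0.18, Dnajc3, the inhibitor of PERK, by 0.26 and 0.22, and Dnajc10 by 0.17 and 0.32. Other Dnajb9 probes gave only -0.03 to -0.02 in wildtype and -0.02 to -0.002 in CHIP null cells. Other Dnajc10 probes gave -0.19 to -0.10 and -0.16 to -0.003, and none of these was called for either gene. Other Dnajc3 probes gave -0.31 to 0.04 and -0.32 to -0.06, with a call in each genotype. Dnajc10 went from 1.07, 0.96 and 0.98 to 0.68, 0.71 and 0.65 in CHIP null cells, where its call was kept on leaving out any of the 6 arrays. In the wildtype the calls were lost without control 1 or 3 or heated array 2 or 3 for Dnajb9, without control 3 for Dnajc3, and without control 2 or 3 or heated array 3 for Dnajc10. In the CHIP null they were lost without any but heated array 1 for Dnajb9, and without control 2 or heated array 3 for Dnajc3. Dnajb11 fell instead at 30 min, by 0.26 in the wildtype, a call lost without control 1, and by 0.29 in the CHIP null; at 240 min its changes were -0.11 and -0.05. Hspa13, a small HSP70 relative, went from 0.99, 1.01 and 0.94 to 0.73, 0.43 and 0.65 in wildtype cells at 240 min. That change was -0.38 ± 0.11, was lost without heated array 2, and was -0.27 on a second probe. In CHIP null cells the changes of Hspa13 were -0.29 at 30 min and -0.32 at 240 min, both called. The call at 30 min was lost without control 3 or heated array 2 or 3. At 240 min it was lost without control 1 or 3 or heated array 2 or 3.

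BiP itself did not rise. Its changes were -0.17 ± 0.07 and -0.22 ± 0.07 at 30 min in wildtype and CHIP null cells, of which the second was called, and -0.02 ± 0.07 and 0.01 ± 0.07 at 240 min. The CHIP null call was lost without control 3 or heated array 2. Manf was also lower in CHIP null cells at 30 min, by 0.26 ± 0.06, going from 1.58, 1.46 and 1.59 to 1.35, 1.19 and 1.33. Hsp90b1 was lower in CHIP null cells at 240 min, by 0.24 ± 0.09, from 1.08, 1.01 and 1.10 to 0.98, 0.82 and 0.68, a call lost without control 1 or 3 or heated array 2 or 3. Hyou1 was higher at 240 min, by 0.22 and 0.29; the first was lost without wildtype control 2 or heated array 2, and with median centring they were 0.13 and -0.02. Pdia5 was higher at 240 min by 0.23 and 0.25, of which the first was lost without wildtype control 3 or heated array 2 or 3, and with median centring they were 0.11 and -0.10.

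Among the sensors, Atf6 and Eif2ak3 were called in none of the 4 heat comparisons on the probe used, with changes of 0.01 to 0.11 and of -0.03 to 0.08. Over the 24 arrays Atf6 lay between 0.18 and 0.59, and Eif2ak3 between -0.60 and -0.26. A second Atf6 probe was called higher after heat at 240 min in both genotypes (0.18 and 0.18), and between heated genotypes at 30 min (0.32). Ern1 was higher in wildtype cells at 30 min, from 0.13, 0.10 and 0.05 to 0.23, 0.33 and 0.27, a change of 0.19 ± 0.06 that was lost without any 1 of the 6 arrays. Its other changes were -0.07 to 0.08. Xbp1 was higher in CHIP null cells at 240 min by 0.18 ± 0.07, from -0.03, -0.02 and -0.06 to 0.01, 0.19 and 0.25, lost without control 1 or 3 or heated array 2 or 3. With median centring that value was -0.16. These probes read the amount of mRNA, not splicing of Xbp1 or activation of the sensors.

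Fewer calls held within slides. In the slide block fit, 1 member was higher in wildtype cells at 30 min (Fkbp11) and 1 lower at 240 min (Sel1l), and 4 and 5 were higher and 4 and 5 lower in CHIP null cells at those times. Of all 13538 genes, 452, 613, 2696 and 2747 were called in either direction in that order. All members called in the fit without the block kept their direction. On leaving out any 1 of the arrays compared, 1 of 6 calls was kept throughout in wildtype cells at 30 min and 5 of 17 at 240 min, and 6 of 14 and 9 of 21 in CHIP null cells. Those kept in CHIP null cells at 240 min were Pdia5, Calr, Canx, Dnajc10, Edem1, Sel1l, Hyou1, Fkbp2 and Fkbp11. At 30 min in the wildtype the number higher fell to 1 without control 2 or heated array 1 or 2, and the number lower to 0 without control 1 and 1 without control 2. At 240 min the number higher in the wildtype was 4, 5 and 3 without controls 1, 2 and 3, and 2 and 3 without heated arrays 2 and 3, and the number lower 4 without control 3. In CHIP null cells the number lower at 30 min was 4 without control 3 or heated array 2, and at 240 min 7 were higher without control 2 or heated array 3 and 5 lower without control 3 or heated array 2 or 3.

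Macrophage markers also moved with heat: 7 of 11 were lower in heated wildtype cells at 30 min, 4 higher and 1 lower in heated CHIP null cells at 30 min, and 2 and 8 higher at 240 min. Their part in the members' changes was not tested. A loss of cells of a type and less RNA per cell cannot be told apart in these bulk cultures.

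Loss of CHIP did not detectably alter the heat changes of these genes. Of the 34 members, 0 were called in the difference of heat changes between genotypes at 30 min, beside 0.443% of all genes (0.384% higher, 0.0591% lower). An unadjusted p under 0.05 was found for 3 members, beside 1579 of all 13538 genes. At 240 min 0 were called, beside 0% of all genes, and 0 had an unadjusted p under 0.05, beside 474 of all genes. The lowest and highest differences at 30 min were -0.27 for Canx (95% interval -0.51 to -0.03) and 0.22 for P4hb (-0.00 to 0.43). Between the time labels, no member's heat change differed in wildtype cells, beside 1.26% of all genes (0.739% higher). There 7 members had an unadjusted p under 0.05, beside 2209 of all genes. In CHIP null cells Fkbp2 was called, with a difference of 0.32, beside 2.33% of all genes. That call was lost without CHIP null control 1 or 3 or heated array 3 at 30 min, or control 1 or 2 or heated array 2 or 3 at 240 min.

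Other genes of the ER pathways were read from lists of 110 genes, of which 108 were tested. After heat, 5 were higher and 5 lower in wildtype cells at 30 min (all genes: 6.75% higher, 7.76% lower), and 27 and 15 in CHIP null cells (22.6 and 12.6%). At 240 min these numbers were 19 and 13 (18.7 and 12.7%), and 17 and 15 (24.4 and 14.5%). Between genotypes 17 were higher and 23 lower in CHIP null controls at 30 min (14.6 and 19.3%), and 18 and 13 after heat (14.2 and 13.2%). At 240 min 18 were higher and 2 lower in controls (4.79 and 8.23%), and 12 and 2 after heat (4.65 and 8.27%). Of 10 targets of the PERK arm, 5 were higher and 2 lower in CHIP null controls at 30 min, 6 and 0 in controls at 240 min, and 5 and 1, and 5 and 0, after heat, beside the same shares of all genes. Their medians were 0.22, 0.28, 0.11 and 0.22 in that order.

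In the PERK list, Asns, the asparagine synthetase that ATF4 induces, was higher in all 4 genotype comparisons, by 0.45 and 0.51 at 30 min in controls and heated cells and by 0.50 and 0.49 at 240 min. With the slide as a block the differences for Asns were 0.64, 0.59, 0.49 and 0.40, all still called. Trib3, a pseudokinase induced by ATF4, was higher by 0.54 in heated cells at 30 min and by 0.54 and 0.67 at 240 min, and Chac1, which degrades glutathione, by 0.53 in controls at 30 min and by 0.42 and 0.58 at 240 min. On a second probe Trib3 differed by 0.23, 0.31 and 0.42, and under the slide block the call of Chac1 in controls at 240 min was lost (0.39, adjusted p = 0.143 by limma). After heat at 240 min Ssr3, a subunit of the translocon-associated complex, was lower by 0.43 in both genotypes on its main probe, while its other probes gave 0.24 and -0.19 in wildtype and 0.10 and -0.24 in CHIP null cells. Under the slide block its wildtype call was lost (-0.31, adjusted p = 0.141 by limma). Edem3, a relative of Edem1, was lower by 0.50 and Tmx3, a membrane disulfide isomerase, by 0.46 in CHIP null cells, where other Tmx3 probes gave -0.12 and -0.10. Cebpb, a transcription factor of the PERK list, was higher in CHIP null cells at 30 min, by 0.98 in controls and 0.74 after heat, and by 0.44 and 0.27 on another probe. Among the other folding enzymes, Plod2 differed between genotypes at 30 min by -0.62 in controls and -0.68 after heat. P4ha2 was higher in CHIP null cells, by 0.41 in heated cells at 30 min and by 0.54 and 0.68 in controls and heated cells at 240 min. All these calls of Plod2 and P4ha2 were kept under the slide block.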

How the data were processed

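RNA of 24 cultures was hybridized in Cy5 against a common Cy3 reference. Spots were read with Agilent Feature Extraction 9.1.3.1, per the file headers. The deposited intensity values are mean spot and median local background brightness, not corrected, and the log10 ratio is dye-normalized Cy5 over Cy3, per the file headers. Flag columns mark background, saturation and outliers, per the file headers. Background was corrected here with normexp (offset 50, which draws dim ratios towards 0) and ratios by loess in each array, with control spots at weight 0; 333 outlier spots were left out. Probes were renamed through RefSeq genes of GRCm38.p6 by accession for 22951, symbol for 6659 and synonym for 3109, and 8455 kept their name. The gene's brightest probe that passed the background filter stands for it.

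limma 3.58.1 in R 4.3.3 fitted 8 group means to the 24 arrays; p-values were adjusted by Benjamini-Hochberg over 13538 genes at 0.05, and ± is the standard error of that fit. The number of arrays limits the precision. The code was tested on simulated data.

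The members and lists were chosen with earlier results of these data known. Members with a called change of at least 0.3 are given by array in comparisons that called them, except Hspa13 in CHIP null cells, which is given by its change. Sensors and Hsp90b1 are given by array or by their range, and others by counts or values. Roles were assigned by hand, and the difference of genotype effects between times was added after the values were seen. Replicate numbers were checked for pairing: of 36 same-numbered pairs 10 correlated above 0.1 (-0.29 to 0.57, median 0.03). Heated wildtype and CHIP null arrays at 240 min gave 0.57, 0.07 and 0.45 for replicates 1, 2 and 3. Between their replicates 1 and 3 the values were -0.50 and -0.52. The main fit used no pairing.

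The authors' value table covers 28139 probes. Its values are log10 ratios divided by the natural log of 2, in the direction Cy5 over Cy3, minus the mean of the 3 controls in heated columns; this was found from the values, with at least 99.25% of a control column within 0.001. Each column matched a scanner file of the other time label, at a correlation of at least 0.9975 against at most 0.9004 for its own label. No source used here settles which label holds. Alternatives were a normexp offset of 10, median centring, the deposited log ratio, no filter on dim probes, the mean of passing probes, slide and replicate blocks, 12 arrays of a time label, each array left out, and the value table.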

Additional observations from a re-analysis of the deposited data

Results flagged for a closer look

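In CHIP null cells the heat change of Fkbp2 was larger at 240 than at 30 min, by 0.32 (limma adjusted p = 0.0326, 3 arrays a group), with changes of 0.31 and -0.01. The genotype difference changed between the time labels for 7 members, a test added after the values were seen. In controls it was smaller at 240 min by -0.46 for Hspa5, -0.35 for Manf, -0.28 for Pdia6 and -0.28 for Creld2. In heated cells the change was -0.38 for Hspa5, -0.35 for Manf, -0.33 for Pdia6 and -0.30 for Dnajc10, and 0.29 for Dnajb9 and 0.22 for Syvn1. With the slide as a block none of these was called. At 30 min the genotypes also differed in Xist and in Y-linked genes, and at 240 min they did not. Wildtype cultures differed in these genes between the time labels, and the part of this in the values was not tested.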

How the results depend on the processing

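With the slide as a block, Hyou1 (-0.065) and Ppib (-0.036) turned between heated genotypes at 30 min. With median centring, which moved the median over all genes down in the heat comparisons, most rises in heated CHIP null cells turned. The cause was not tested. Signal over background limits the dim probes, and 3 arrays a group limit the rest.

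With a normexp offset of 10, 3 members were higher after heat in wildtype cells at 240 min and 4 in CHIP null cells at 30 min, 0 were lower between heated genotypes at 240 min, and 39 genes were called in the difference of heat changes between genotypes at 30 min and 102 and 105 between times in wildtype and CHIP null cells, with 0 members in the latter.

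With median centring, genes called after heat numbered 617 and 1853 in wildtype cells at 30 and 240 min. Members higher were 0 in all 4 heat comparisons, members lower 0 in wildtype cells and 21 in CHIP null cells at 30 min. Turned below 0 in CHIP null cells at 30 min were P4hb (-0.22), Calr (-0.24), Creld2 (-0.20), Derl1 (-0.41), Sec61b (-0.028), Sec61a1 (-0.31) and Ppib (-0.18). At 240 min these were Pdia4 (-0.15), Pdia5 (-0.096), Calr (-0.047), Sdf2l1 (-0.12), Creld2 (-0.14), Xbp1 (-0.16), Atf6 (-0.34), Derl2 (-0.15), Hyou1 (-0.021), Sec61b (-0.0026), Ppib (-0.037), Fkbp2 (-0.0046) and Fkbp11 (-0.035). Between genotypes 2862 genes were called in controls at 30 min and 832 at 240 min, and 1539 in heated cells at 30 min. Members higher were 1 in controls at 240 min and 2 and 0 in heated cells at 30 and 240 min, and members lower 0 and 1 at 30 min in controls and heated cells and 0 in heated cells at 240 min. In the differences, 5, 28 and 8 genes were called (by genotype at 30 min, and by time in wildtype and CHIP null cells) and 784 and 764 for genotype by time, with 0 members.

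With the scanner's log ratio, 2649 and 2835 genes were called after heat at 240 min in wildtype and CHIP null cells, with 2 and 4 members higher, and 109 and 115 in the time differences, with 0 members. Heated genotypes at 240 min had 0 members lower, and 1 was higher in the heated genotype-by-time difference. With no filter on dim probes, 6 members were higher after heat in wildtype cells at 240 min and 1 in that difference. With the mean of passing probes, Pdia6 (0.12) and Derl2 (-0.0065) turned in heated wildtype cells at 240 min, and Serp1 in heated CHIP null cells at 30 min (0.14) and between heated genotypes there (0.18); members lower between genotypes were 0 in controls at 30 min and heated cells at 240 min, 0 were called in the CHIP null time difference and 1 was higher in the heated genotype-by-time difference.

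Under the slide block, genes called after heat were 452 and 613 in wildtype cells at 30 and 240 min and 2696 and 2747 in CHIP null cells. Members higher were 1, 0, 4 and 5 and lower 0, 1, 4 and 5. Between genotypes 1638 and 467 genes were called in controls and 1721 and 369 in heated cells, with 4, 0, 5 and 0 members higher and 0 lower. The differences had 12 and 1 genes called by genotype, 20 and 18 by time, and 693 and 658 for genotype by time, with 0 members. Over only the 12 arrays of the time label, 17 genes differed by genotype at 30 min. In the authors' value table by its own labels, 2 members were higher and 0 lower in heated wildtype cells at 240 min, and 4 and 6 were higher in CHIP null cells at 30 and 240 min. Its columns matched scanner files of the other time label, so these counts come from other arrays than the main counts of the same label.

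With the replicate number as a block, 1 member was higher in the heated genotype-by-time difference, and 6, 15, 14 and 18 of the heat calls and 11, 3, 17 and 5 of the genotype calls were kept. Only 10 of 36 same-numbered pairs correlated above 0.1.

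Leaving out 1 array at a time, genes called after heat ranged from 1052 to 2002 and from 2676 to 4268 in wildtype cells at 30 and 240 min, and from 3582 to 4501 and from 3064 to 6155 in CHIP null cells. Members higher ranged from 1 to 2, 2 to 7, 5 to 6 and 7 to 9, and lower from 0 to 4, 4 to 7, 4 to 7 and 5 to 9. Between genotypes the genes were 3735 to 4358 and 1282 to 1516 in controls and 3112 to 3317 and 1171 to 2070 in heated cells, members higher 7 to 10, 2 to 4, 12 to 14 and 3 to 5, and lower 0 to 1, 0, 2 and 0 to 1. Differences of heat changes had 16 to 229 and 0 to 3 genes by genotype, with 0 members, and 87 to 248 and 76 to 840 by time, with 0 to 1 members higher and 0 lower. For genotype by time the genes were 2045 to 2380 in controls and 1975 to 2469 in heated cells, with 0 members higher and 2 to 5 lower, and 0 to 3 higher and 4 to 6 lower.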
